A study of Zea mays with 22 samples.

Results

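Probes of 4 maize genes of phenylpropanoid and lignin synthesis, named PAL1, 4CL, pOMT1 and cncr1, were followed on every distinct array profile of a UV-B series. All probes that carry these names in the platform annotation, directly or as a synonym of the gene, were taken. They came to 5 of 5638 probes on the first array platform and 5 of 5753 on the second, and to 4 of 329 annotated genes. The same expressed sequence clones were printed on both platforms: AW134446 for PAL1, AI948376 for 4CL, AW066302 for pOMT1, and AI947674 and AW191198 for cncr1. The annotation lists these genes as LOC542258, LOC542166, LOC542560 and LOC542463, and RefSeq, in its table for Zm-B73-REFERENCE-NAM-5.0, gives LOC542258 the synonyms PAL1 and pal3.

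Phenylpropanoid synthesis turns phenylalanine into cinnamic and coumaric acids and their coenzyme A esters, which feed both lignin in the cell wall and soluble phenolics. Leaf phenolics such as flavonoids and hydroxycinnamate esters absorb UV-B, and the pathway is known for its response to UV light, wounding and pathogens. Phenylalanine ammonia-lyase (PAL) makes the first step and 4-coumarate:CoA ligase (4CL) forms the coenzyme A esters. O-methyltransferases add methyl groups to phenolic rings, and cinnamoyl-CoA reductase (the product of cncr1) makes the first step that belongs to lignin alone.

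Each of the 22 arrays carried 2 labelled RNAs, so it gives a ratio and no level of either RNA. The second platform held UV-B exposed against control material in 4 regimes of 2 arrays. The regimes are called 2 h high, 4 h medium, 8 h low, 8 h high. Their labels carry the word reciprocity. They give the intensity only as high, medium or low, and they do not give the organ. The first platform held UV-B exposed against control organs after 8 h, which were adult leaf (2 arrays), seedling leaf (2), root (2), tassel (2) and immature ear (3). It also held adult leaf under a CA bag against adult leaf under a PE bag on exposed plants (2), and PE-covered leaf of exposed plants against PE-covered leaf of control plants (1). CA is commonly cellulose acetate, a film that passes UV-B, and PE polyester, which absorbs it, but the labels give only the letters. The group labels name no line, age or plant, and they do not say whether the 2 arrays of a group came from separate plants. P-values therefore measure only the spread between these arrays, which may be technical. In the fits that spread is pooled over probes, so it comes mostly from probes other than the one tested.

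Values are log2 ratios with the median probe of each array at 0. A positive value is taken to mean more RNA in the UV-B channel than in its control, or more under CA than under PE. This is an assumption, since the files do not state a direction, and if it is wrong for a platform every sign there turns. In array 2 of each pair the channels were exchanged, and those values were taken as already turned. Between 32.7% and 99.2% of spots had a value on the first platform and between 83.0% and 91.7% on the second, and the number of arrays limits the precision. On the first platform several columns repeat 1 profile up to a constant, and immature ear array 1 is identical to tassel array 1, so 14 arrays hold 9 distinct profiles. Adult leaf and CA against PE thus have 2 arrays and the other groups 1. Across probes the 2 arrays of a regime correlated at 0.80 for 2 h high, 0.23 for 4 h medium, -0.36 for 8 h low and 0.18 for 8 h high, and those of adult leaf at -0.18. The CA against PE arrays, as deposited, correlated at 0.57. The negative values mean that the sign of the 8 h low and adult leaf arrays is not settled. The rank (Spearman) correlation of the 8 h high arrays was -0.01, so their sign is not firmly settled either. Between regimes, arrays of the same channel orientation had a median Pearson correlation of 0.28, and those of opposite orientation 0.01. Ratios of marker genes were set beside the pathway genes, because no level could be read to check the labelled organs. In whole organs a lower number of cells of a type and less RNA per cell cannot be told apart.

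In the 4 regimes, PAL1 was positive on 7 of 8 arrays and highest at 8 h high, pOMT1 was positive at 2 h high and negative in the other 3 regimes, and the 2 probes of cncr1 parted at 2 h high. These signs hold as the values were deposited. With the swapped arrays turned, PAL1 was at -0.00 at 2 h high, 0.17 at 4 h medium, 0.04 at 8 h low and -0.18 at 8 h high. pOMT1 was then at -0.02 at 2 h high, -0.03 at 4 h medium, 0.14 at 8 h low and 0.21 at 8 h high, and no probe of the pathway was called. A probe was called when its adjusted p was below 0.05, from limma with Benjamini-Hochberg adjustment over all probes tested. At 8 h high 2 of 4 probes tested were called, PAL1 with a positive and pOMT1 with a negative value, where 3.79% of all probes were called. At 2 h high 1 of 4 was called, where 13.8% of all probes were. At 4 h medium 0 of 4 were called (0.303% of all probes), with pOMT1 the 1 of the 4 at an unadjusted p under 0.05. At 8 h low 0 of 2 were called (0.388% of all probes), and neither had an unadjusted p under 0.05.

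**Figure D1:**
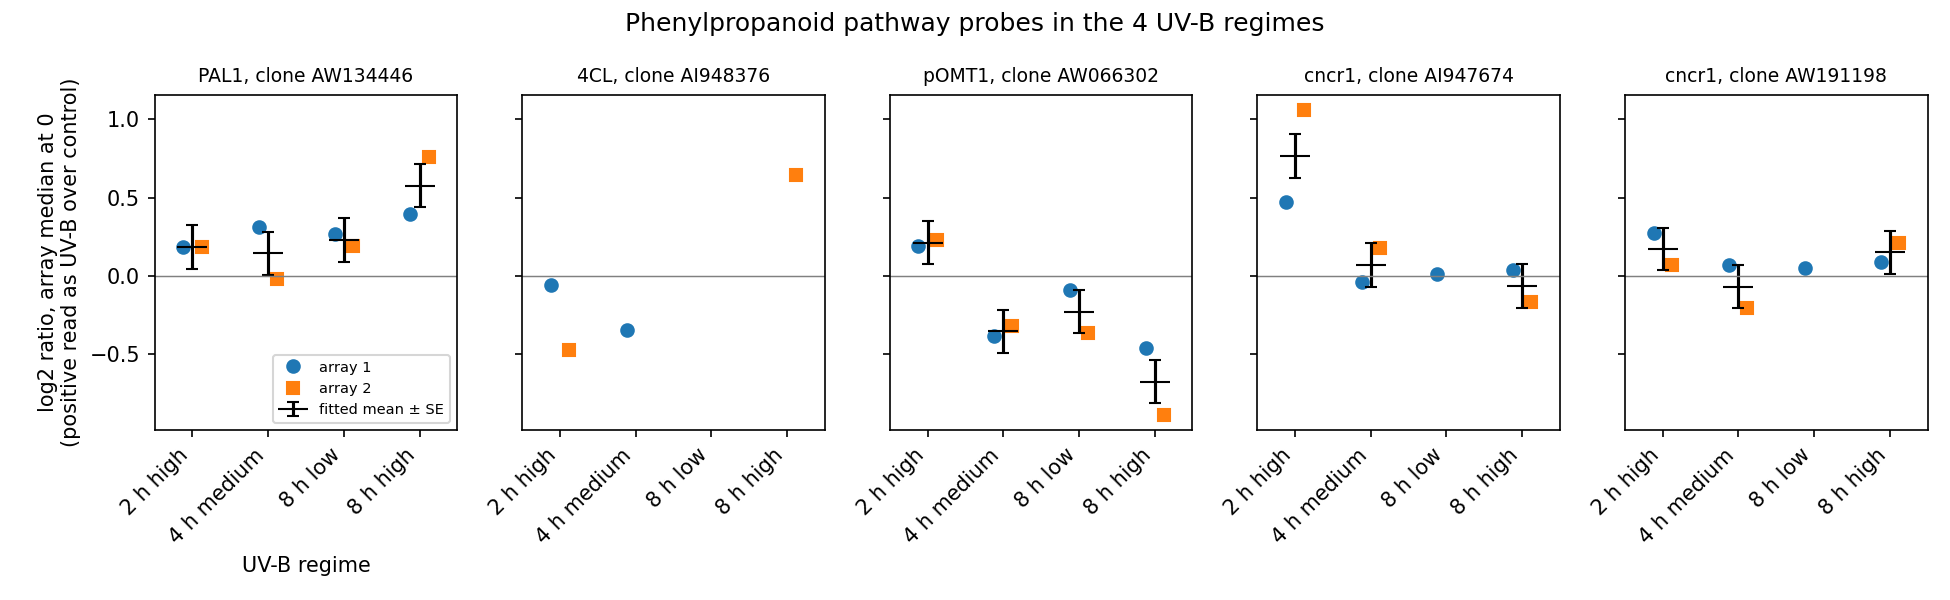
Log2 ratio of each of the 5 probes on both arrays of the 4 UV-B regimes (points), with the fitted mean and its SE where the fit gave one; positive is taken as higher with UV-B. PAL1 lies highest at 8 h high (0.40 and 0.76), pOMT1 lowest there (-0.46 and -0.89), and the AI947674 probe of cncr1 lies highest at 2 h high (0.47 and 1.06).

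PAL1, the entry enzyme, had log2 ratios of 0.18 and 0.19 on the 2 h high arrays, 0.31 and -0.02 at 4 h medium, 0.27 and 0.19 at 8 h low, and 0.40 and 0.76 at 8 h high. Both 8 h high arrays lay above all 6 arrays of the other regimes. Its 3 spots were close to each other, with an SD of at most 0.05 on any regime array. At 8 h high the fitted mean was 0.58 ± 0.139 (SE, n = 2 arrays), a fold of 1.49, with a 95% interval of 0.30 to 0.86 on the log2 scale and an adjusted p of 0.00698 in limma. On these arrays PAL1 stood at the 94.7th and 99.0th percentile of all probes. Its fitted means in the other regimes were 0.19 at 2 h high (adjusted p = 0.436), 0.14 at 4 h medium (0.996) and 0.23 at 8 h low (0.436), none of which was called.

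The difference of PAL1 between regimes was smaller than its error allowed to be called. The 8 h high value minus the 2 h high value was 0.39, with a 95% interval of -0.00 to 0.79 (SE 0.196, adjusted p = 0.204). The 8 h high value minus the 8 h low value was 0.35, with an interval of -0.05 to 0.74 (adjusted p = 0.505). The spread among 2 h high, 4 h medium and 8 h low gave an adjusted p of 0.99 in the F test of limma.

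The PAL1 call at 8 h high depended on how the arrays were treated. The probe comes from an inferred source plate of 96 wells, plate 4, whose other probes had a median of 0.17 and 0.31 on the 8 h high arrays and -0.16 on both 2 h high arrays. PAL1 stood at the 81.9th and 93.3rd percentile of its plate at 8 h high, and at the 94.3rd and 93.3rd percentile at 2 h high. With plate medians set to 0, its value was 0.34 at 8 h high (adjusted p = 0.235) and 0.35 at 2 h high (0.0977), and the difference between them was -0.01. Without the term for channel orientation the value stayed at 0.58 with an adjusted p of 0.115. In a fit of the 8 h high arrays alone, also without that term, the value was called. It was 0.83 without 8 h high array 1 and 0.33 without array 2, and neither was called. With array weights the adjusted p was 0.0512.

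4CL, the ligase that forms the coenzyme A esters, was barely measured in the regimes, with a value at 4 of its 24 spots. Its single spots read -0.06 and -0.47 on the 2 h high arrays, -0.35 on 4 h medium array 1 and 0.64 on 8 h high array 2. Both 8 h low arrays were blank. These values span both signs. The fit with the orientation term left 4CL no residual degree of freedom. Fits without that term could test it at 2 h high, where its mean was -0.27 and was not called (adjusted p = 0.443 with all regime arrays, and 0.0632 with the 2 h high arrays alone).

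pOMT1, named as an O-methyltransferase, had log2 ratios of 0.19 and 0.23 at 2 h high, -0.38 and -0.32 at 4 h medium, -0.09 and -0.36 at 8 h low, and -0.46 and -0.89 at 8 h high. Both arrays of a regime had the same sign in each of the 4 regimes, and the 2 h high arrays were the 2 positive ones. At 8 h high the fitted mean was -0.67 (SE 0.137, n = 2 arrays), a fold of 0.627, with a 95% interval of -0.95 to -0.40 and an adjusted p of 0.001 in limma. The probe stood at the 3.79th and 0.0761st percentile of all probes on these arrays. On 8 h high array 2 it lay below all 93 other probes of its plate with a value, and on array 1 it stood at the 1.09th percentile of the others. That plate, plate 44, had medians of -0.04 and -0.06 there.

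The value of pOMT1 was -0.63 (adjusted p = 0.00187) with plate medians set to 0 and -0.63 (adjusted p = 0.00294) with print block medians set to 0, and both were called. The call was lost without the orientation term (-0.67, adjusted p = 0.0586), without 8 h high array 1 (-0.86, adjusted p = 0.124) and without 8 h high array 2 (-0.49, adjusted p = 0.5). The orientation term was absent too from a fit of the 8 h high arrays alone, where pOMT1 was called. In each of these fits the sign stayed negative.

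pOMT1 also differed between regimes. Its 8 h high value minus its 2 h high value was -0.89 (SE 0.194, interval -1.28 to -0.49, adjusted p = 0.000829), and no array of one regime overlapped the other. In that contrast 2 of 4 probes tested were called, pOMT1 and the AI947674 probe of cncr1, against 11.5% of all probes. The difference of pOMT1 was called without the orientation term (adjusted p = 0.027) and with plate medians set to 0 (-0.73, adjusted p = 0.00855), and was not called without 2 h high array 2 (-0.76, adjusted p = 0.115) or without 8 h high array 2 (-0.70, adjusted p = 0.129).

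The 4 h medium arrays of pOMT1 were close to each other (mean -0.35, SD 0.04, n = 2), and the 4 h medium value had an unadjusted p of 0.0136 and an adjusted p of 0.681. With the arrays scaled to a common spread it was -0.52 and called (adjusted p = 0.0089), and with array weights it was -0.35 and called (adjusted p = 0.000227). The 2 h high value minus the 4 h medium value was 0.56 (interval 0.17 to 0.95, adjusted p = 0.0764), and it was called without either 8 h low array (adjusted p = 0.0467). In the fit of all 8 regime arrays, 1 of 4 probes was called in this contrast, the AI947674 probe of cncr1, against 6.72% of all probes. In a fit of the 2 h high and 4 h medium arrays alone, without the orientation term, the 1 called was pOMT1. The 2 h high value of pOMT1 minus its 8 h low value was 0.44 (adjusted p = 0.216), and its 8 h high value minus its 8 h low value was -0.45 (interval -0.84 to -0.06, adjusted p = 0.349).

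In the remaining contrasts none of the pathway probes tested was called. They were 0 of 2 for 8 h high minus 8 h low (0.637% of all probes called), 0 of 2 for 2 h high minus 8 h low (5.27%), 0 of 2 for 4 h medium minus 8 h low (0% of all probes) and 0 of 2 in the F test of the 3 shorter or weaker regimes (6.13%). Below an unadjusted p of 0.05 in these tests lay pOMT1 alone, in 8 h high minus 8 h low (0.0257), 2 h high minus 8 h low (0.0287) and the F test (0.0145). Only PAL1 and pOMT1 could be tested where 8 h low was involved, because both cncr1 probes were blank on 8 h low array 2.

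**Figure D2:**
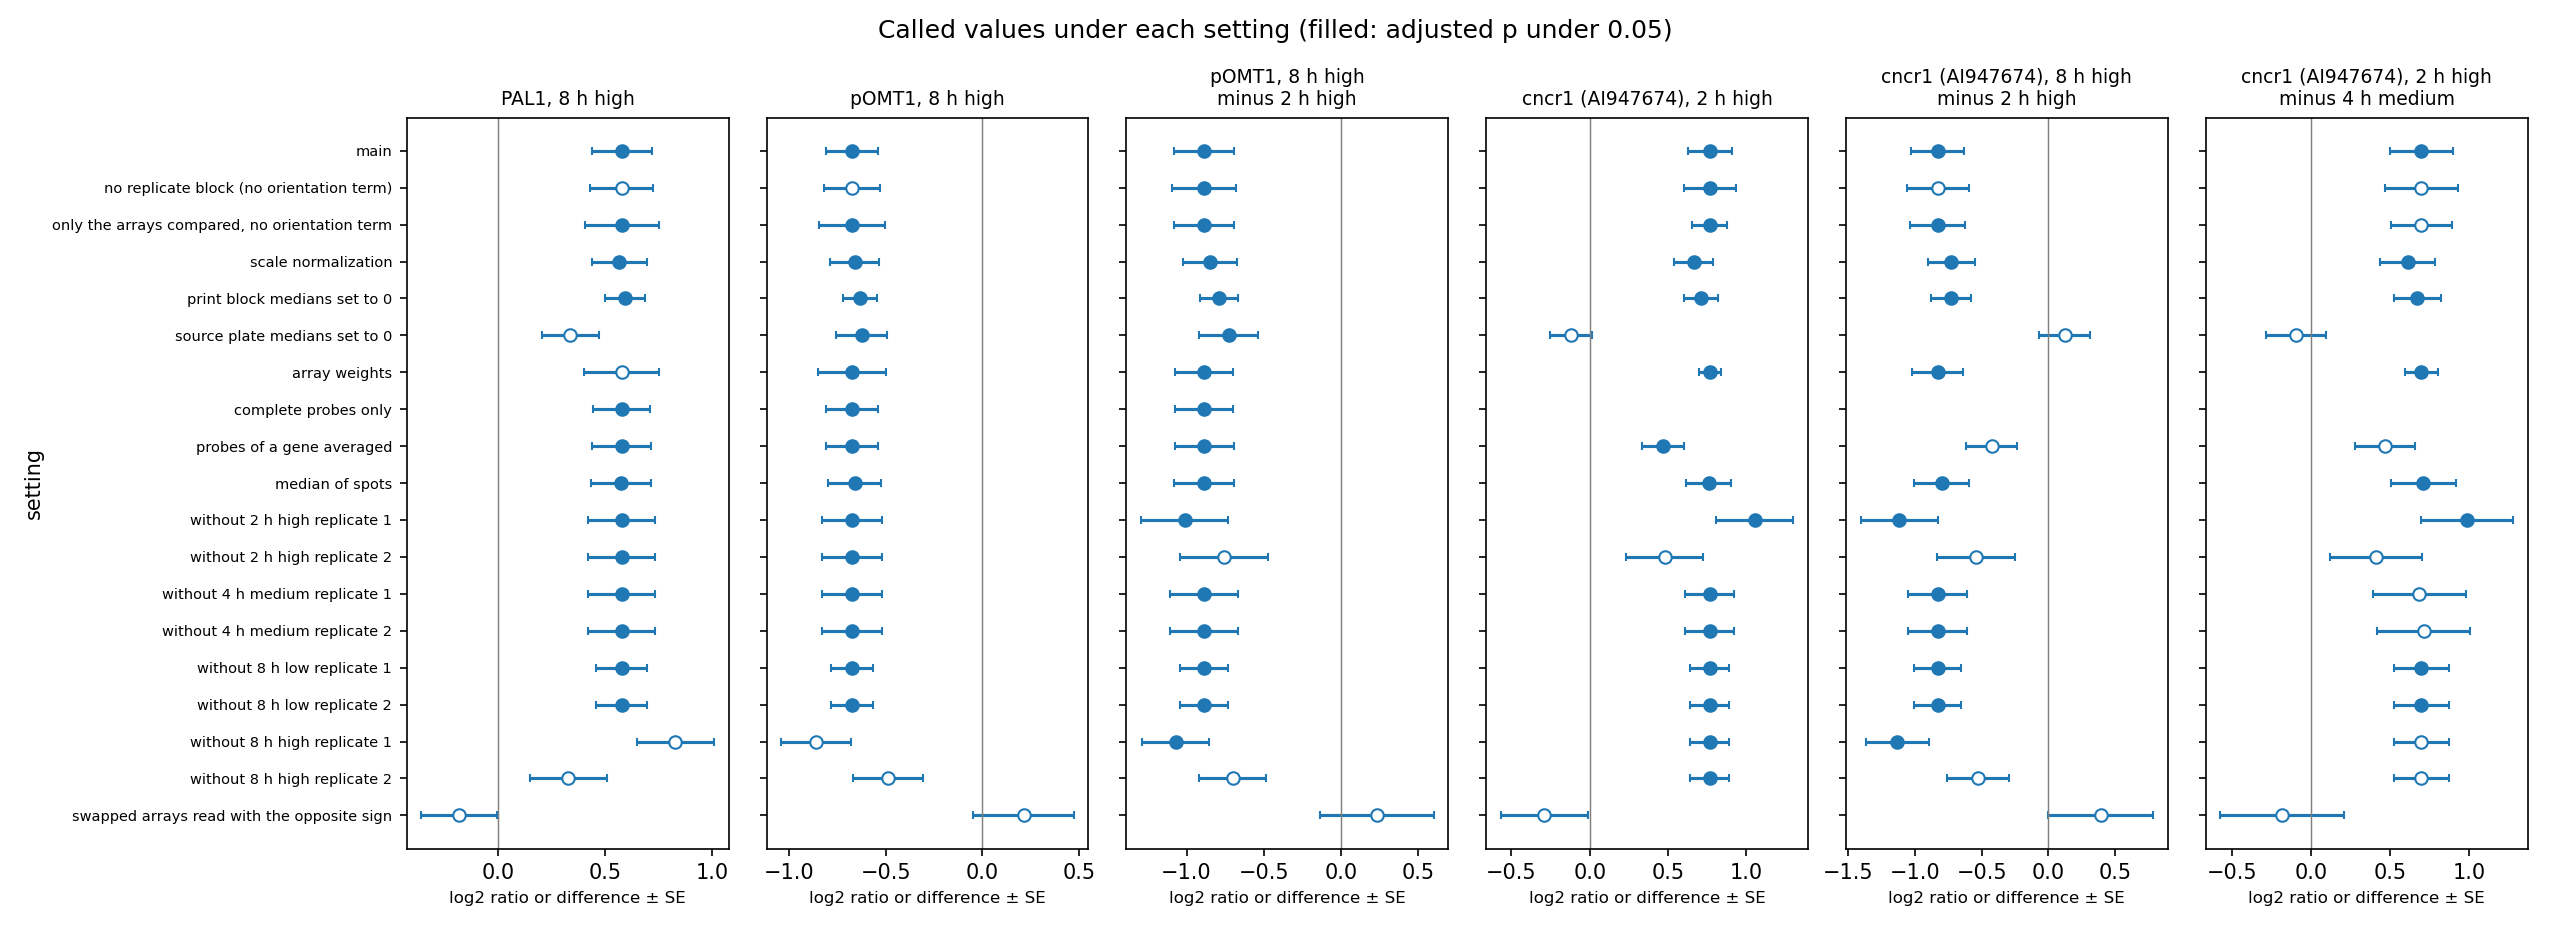
The 6 called values (columns; PAL1 and pOMT1 at 8 h high, pOMT1 as 8 h high minus 2 h high, the AI947674 probe of cncr1 at 2 h high, as 8 h high minus 2 h high and as 2 h high minus 4 h medium) under each setting (rows), as log2 values with their SE; filled points were called. pOMT1 keeps its sign in every setting but the one with swapped arrays turned, and the AI947674 probe crosses 0 also when source plate medians are set to 0 (-0.12, 0.12 and -0.10). In the row with the probes of a gene averaged, the AI947674 columns show the mean of both cncr1 probes.

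Of cncr1, which codes for cinnamoyl-CoA reductase, the AI947674 probe read 0.47 and 1.06 at 2 h high, -0.04 and 0.18 at 4 h medium, 0.01 on the 8 h low array with a value, and 0.04 and -0.16 at 8 h high. Both 2 h high arrays lay above all 5 others. The fitted 2 h high mean was 0.77 ± 0.141 (SE, n = 2 arrays), a fold of 1.70, with an interval of 0.48 to 1.05 and an adjusted p of 4.62e-05 in limma. The second probe of the gene, AW191198, read 0.27 and 0.07 at 2 h high, 0.07 and -0.20 at 4 h medium, 0.05 on 1 array at 8 h low, and 0.09 and 0.21 at 8 h high. Its 2 h high mean was 0.17, with an interval of -0.10 to 0.45 (adjusted p = 0.471), and its 8 h high mean was 0.15 (adjusted p = 0.858). The intervals of the 2 probes at 2 h high do not overlap, and the difference between them was not tested itself.

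The high ratios of AI947674 at 2 h high were shared by the probes around it. The other probes of its plate, plate 37, had a median of 0.69 and 1.10 on the 2 h high arrays, against medians of -0.00 on both arrays for the probes elsewhere. Within its plate the cncr1 probe stood at the 32.4th and 44.7th percentile. On 4 h medium array 2 the plate median was 0.20 and the probe read 0.18. With plate medians set to 0, the 2 h high value of AI947674 was -0.12 (SE 0.134, adjusted p = 0.691) and that of AW191198 was 0.14 (adjusted p = 0.635). Plate 45, which holds AW191198, had medians of 0.13 and -0.06 at 2 h high.

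**Figure D3:**
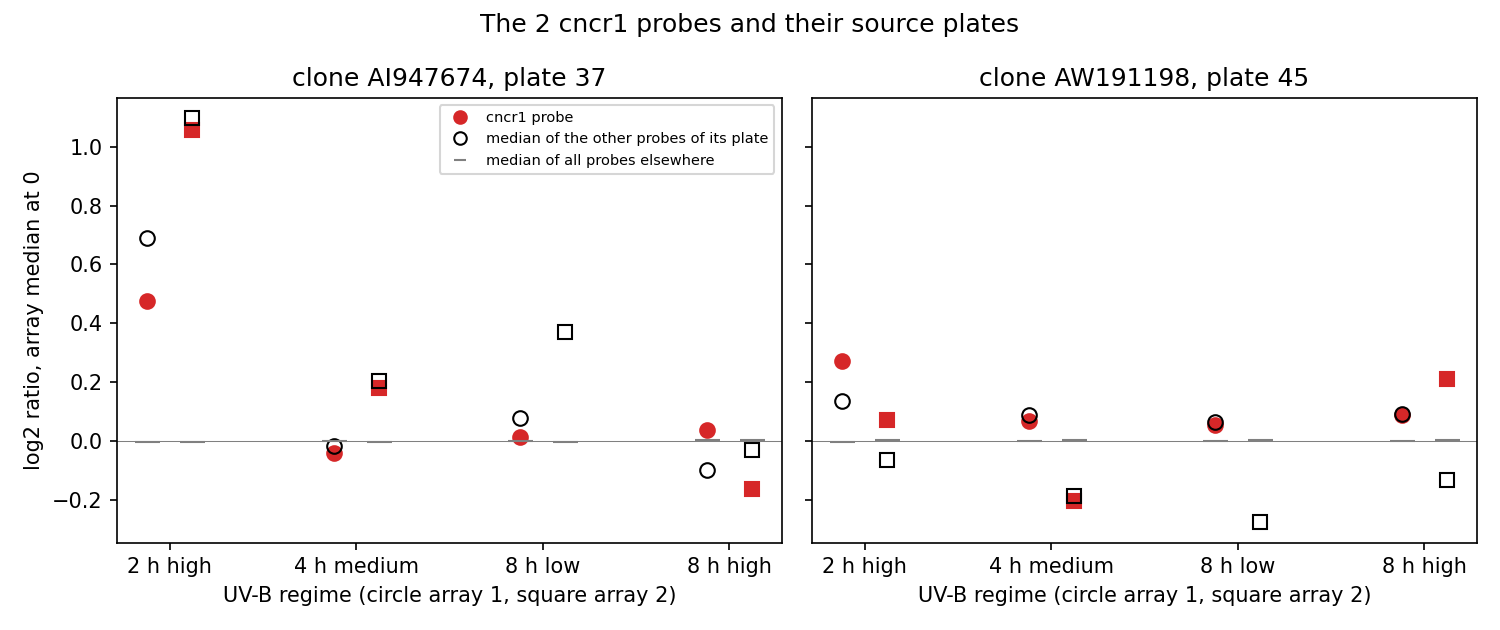
Log2 ratios of the 2 cncr1 probes (red), of the median of the other probes on their source plates (open) and of all probes elsewhere (grey dashes) on each regime array, with circles for array 1 and squares for array 2. At 2 h high the AI947674 probe (0.47 and 1.06) lies just below its plate (0.69 and 1.10), and plate 45 shows no such shift (0.13 and -0.06).

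The contrasts of AI947674 between regimes moved in the same way. Its 8 h high value minus its 2 h high value was -0.83 (SE 0.200, adjusted p = 0.00266), which became 0.12 with plate medians set to 0. Its 2 h high value minus its 4 h medium value was 0.70 (SE 0.200, adjusted p = 0.019), which became -0.10. For AW191198 the same contrasts were -0.02 (interval -0.41 to 0.37) and 0.24 (interval -0.15 to 0.63), and neither was called. With both probes averaged per gene, cncr1 was at 0.47 at 2 h high (adjusted p = 0.0131), -0.43 in 8 h high minus 2 h high (adjusted p = 0.15) and 0.47 in 2 h high minus 4 h medium (adjusted p = 0.188). Without 2 h high array 2, AI947674 was at 0.48 at 2 h high, -0.54 in 8 h high minus 2 h high and 0.41 in 2 h high minus 4 h medium, and none of these was called. Its call in 8 h high minus 2 h high was also lost without 8 h high array 2 (-0.53, adjusted p = 0.307). Its call in 2 h high minus 4 h medium was also lost without 4 h medium array 1 (0.68), without 4 h medium array 2 (0.71) and without either 8 h high array (0.70, adjusted p = 0.0625). Without the orientation term the contrasts had adjusted p-values of 0.0711 and 0.2. Fits of only the compared arrays also left that term out. There 8 h high minus 2 h high was called for AI947674 and 2 h high minus 4 h medium was not.

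On the first platform PAL1 read -0.06 and -0.46 in adult leaf, 0.18 in seedling leaf, -0.59 in root, 0.06 in the profile deposited for tassel and for immature ear 1, 0.33 in PE-covered leaf and 0.15 on CA against PE array 1. The root value stood at the 2.64th percentile of all probes of its array and at the 4.11th of its plate. Both adult leaf values were negative, the first from 1 spot, while both arrays of 8 h low and 8 h high were positive. On adult leaf array 2 the rest of plate 4 had a median of -0.50, and PAL1 lay at the 54.8th percentile of it. With plate medians set to 0 it read -0.09 and 0.03 in adult leaf, and with adult leaf array 2 turned its values would have opposite signs. PAL1 was blank on CA against PE array 2, so the model holding these 4 arrays did not test it. In the 3 fits that could test it in adult leaf its mean was -0.26 and was not called, with an adjusted p of 0.706 without the orientation term, 0.998 with the adult leaf arrays alone and 0.239 with all 14 arrays. In the tassel profile PAL1 read -0.31 with plate medians at 0 and 0.29 with block medians at 0, in PE-covered leaf 0.13 and 0.39, and in seedling leaf 0.15 and 0.40. Its root value was -0.59 and -0.55 under these settings.

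4CL was complete on this platform, with a value at all 27 spots of the 9 profiles. It read -0.18 and 0.68 in adult leaf, 0.23 and 0.19 in CA against PE, 0.19 in seedling leaf, -0.40 in root, -0.11 in the tassel profile, -0.14 in immature ear and -0.05 in PE-covered leaf. The adult leaf arrays had opposite signs, with a fitted mean of 0.25 (SE 0.233, interval -0.21 to 0.71, adjusted p = 0.966). With the swapped arrays turned that mean was -0.43 (adjusted p = 0.543). The CA against PE arrays were close to each other, with a mean of 0.21 (SD 0.03, n = 2) and a fitted interval of -0.24 to 0.67 (adjusted p = 0.999), and the mean was 0.02 with the swapped arrays turned. The fit of these 2 groups gave every probe the same SE of 0.233. In PE-covered leaf 4CL read -0.22 with plate medians at 0 and 0.10 with block medians at 0.

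pOMT1 had a value at all 27 spots as well. It read 0.00 and 0.33 in adult leaf, 0.01 and -0.50 in CA against PE, 0.18 in seedling leaf, 0.03 in root, -0.19 in the tassel profile, 0.26 in immature ear and -0.09 in PE-covered leaf. Its adult leaf mean was 0.16 (interval -0.29 to 0.62, adjusted p = 0.968) and its CA against PE mean -0.25 (interval -0.70 to 0.21, adjusted p = 0.999). With the swapped arrays turned these means were -0.16 and 0.26, and neither was called. In seedling leaf pOMT1 read 0.26 with plate medians at 0 and -0.15 with block medians at 0, and in immature ear 0.62 and 0.14. On adult leaf array 2 it was 0.03 and 0.60 under these settings, and with plate medians at 0 the tassel profile read 0.03. In adult leaf 0 of 2 pathway probes tested were called (1.58% of all probes) and in CA against PE 0 of 2 (3.62% of all probes), with none at an unadjusted p under 0.05.

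The cncr1 probes were the least filled here, with a value at 10 of 27 spots for AI947674 and 16 of 27 for AW191198. AI947674 read -0.17 on adult leaf array 1, -1.19 in seedling leaf, -0.19 in the tassel profile and -0.20 in PE-covered leaf, so its 4 values were negative. The seedling value came from 1 spot. In the fuller of the 2 columns that hold this profile the 3 spots read -1.19, -0.22 and -0.23, with a mean of -0.55. AW191198 read -0.04 on adult leaf array 1, 0.00 in seedling leaf, 0.65 in root, -0.19 in the tassel profile, -0.01 in PE-covered leaf and 0.14 on CA against PE array 1. Its root spots read 0.53, 0.74 and 0.67, at the 93.6th percentile of the array and the 98.9th of plate 45, whose median was 0.03, and the root value was 0.62 with plate or block medians at 0. Its seedling spots read -0.20, -0.44 and 0.64, so that the mean near 0 hides a spread of 0.57 (SD of 3 spots). The root had 1 distinct profile, and neither its AW191198 nor its PAL1 value has a replicate check.

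**Figure D4:**
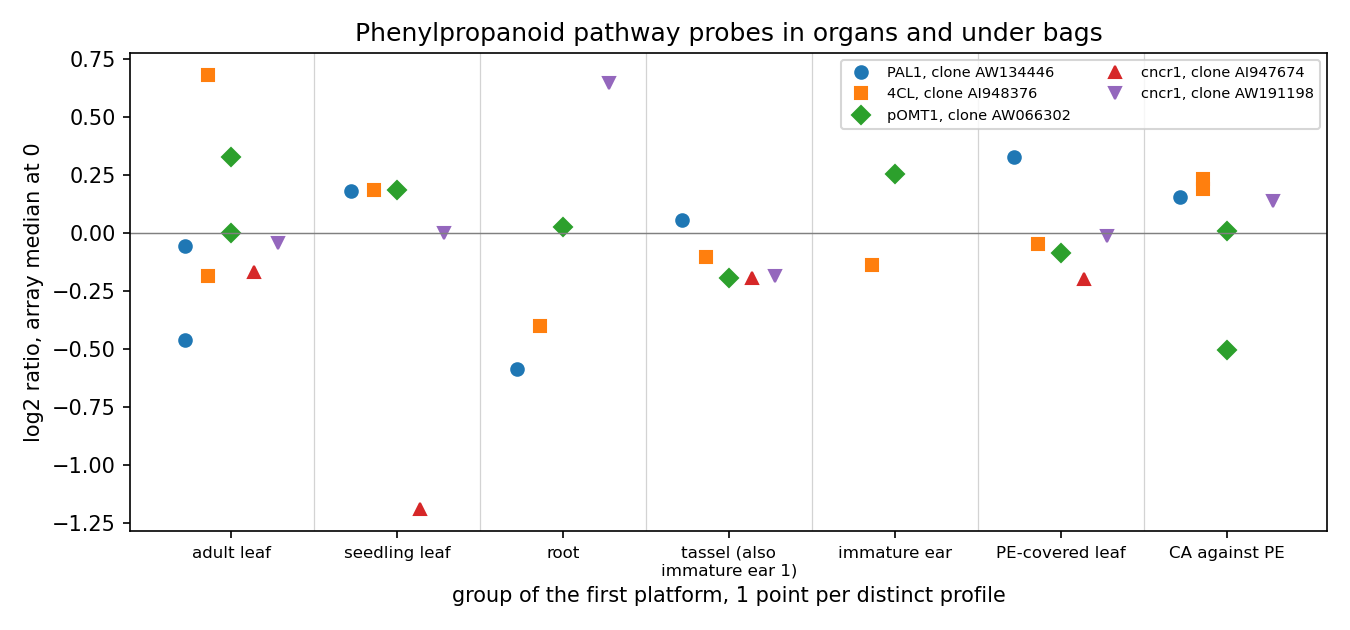
Log2 ratio of each probe on each of the 9 distinct profiles of the first platform, 1 point per profile, with colour and shape for the probe; positive is taken as higher with UV-B, or with CA. In root AW191198 of cncr1 (0.65) lies above pOMT1 (0.03), 4CL (-0.40) and PAL1 (-0.59), and the lowest point is the 1-spot seedling value of AI947674 (-1.19).

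Across the regime arrays PAL1 and pOMT1 tended to opposite values, with a Pearson correlation of -0.67 over 8 arrays, which share their 4 regimes. That correlation includes the shift of plate 4, which holds PAL1. The rest of this plate had medians of -0.16 on both 2 h high arrays, and of 0.17 and 0.31 at 8 h high. pOMT1 and AI947674 had a correlation of 0.81 over 7 arrays, and the 2 cncr1 probes one of 0.03. The rest of plate 37, which holds AI947674, had medians of 0.69 and 1.10 at 2 h high. Correlations between pathway probes were not taken with plate medians at 0, so no joint change of 2 genes is read from them. They are descriptions, since the 2 arrays of a regime are not independent of each other. Among 337 named probes, PAL1 was most like GB1, a G protein beta subunit (r = 0.88, or 0.67 with plate medians at 0), and PP1, a protein phosphatase whose probe shares plate 4 (r = 0.87, or 0.69). pOMT1 was most like m16, also called zmm16, a MADS-box gene (r = 0.92, or 0.92 with plate medians at 0), and inra1(tmp), also called PIP1-1, an aquaporin (r = 0.91, or 0.84).

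Other genes of the pathway were looked up in lists of lignin, flavonoid, shikimate and peroxidase genes. Apart from the genes above, the lignin list had 1 probe, the laccase LAC1, and the flavonoid and shikimate lists had 0 annotated probes. LAC1 read -0.14 and 0.10 at 2 h high and was blank in the other regimes. On the first platform it read 0.14 on adult leaf array 1, 0.17 in seedling leaf, -0.11 in root, -0.06 in the tassel profile, 0.23 in PE-covered leaf and 0.05 on CA against PE array 1. Of the 2 peroxidase probes, per-1 was tested and was called in none of the comparisons, with 0.13 at 2 h high (adjusted p = 0.591) and 0.18 at 8 h high (0.759). The peroxidase ap1 was blank in all regimes and read -0.12 on adult leaf array 1, 0.77 in seedling leaf, -0.37 in root, 0.03 in the tassel profile, -0.05 in immature ear, 0.50 in PE-covered leaf, and 0.12 and -0.41 on the CA against PE arrays.

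Lists of photosynthesis, floral and seed storage genes were set beside these values. The share of all probes called was 13.8% at 2 h high, 0.303% at 4 h medium, 0.388% at 8 h low and 3.79% at 8 h high. The list values were taken without plate medians set to 0. At 8 h high, 1 of 7 photosynthesis probes was called, lhcb5 of a light-harvesting complex at -0.81, with a list median of -0.05 and a range of -0.81 to -0.01, so all 7 were negative. Of the floral list 1 of 6 was called there, the MADS-box gene MADS37 at 0.56, with a list median of 0.05 and a range of -0.17 to 0.56. Of the seed storage list 0 of 5 were called, between -0.06 and 0.34. At 2 h high, 1 of 8 photosynthesis probes was called (me2, a malic enzyme, at 0.58), with a list median of -0.03 and a range of -0.35 to 0.58. There 2 of 5 seed probes were called, the globulins glb1 at 1.22 and glb2 at 0.43, with a list median of 0.18, and 1 of 6 floral probes, m16 at 1.84, with a list median of -0.06. At 8 h low 1 of 8 photosynthesis probes (lhcb5, -0.73) and 1 of 5 floral probes (m28, -0.61) were called, and at 4 h medium 0 of the 3 lists' probes were. The median of all probes tested lay within 0.02 of 0 in each regime. The part of these markers in the values of the pathway genes was not tested.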

How the data were processed

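Total RNA was hybridised on 22 spotted 2-colour arrays. The deposited values are log2 ratios of the 2 channels in 2 tables, and nothing in the labels or file headers states how the authors corrected, normalized or filtered them. The base was read from the values: among repeated values of seedling leaf array 1, 19.1% matched the log2 of 1 small integer over another, against 1.53% for the natural log and 2.29% for log10. That array was among the clearest. Tassel array 1 matched log2 at 6.98% against 4.65% for each other base, and 8 h low array 2 matched log2 and log10 alike at 10.5%. No intensities or backgrounds were used, so dim spots could not be filtered. The 4 genes and all lists were chosen with earlier results of these data known.

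Each 3 consecutive spots are 1 probe and were averaged, probes of 1 clone were merged, and each array was set to a probe median of 0. Columns that agreed up to a constant within 1e-06 were used once, from the less filled column for seedling leaf. This left 17 profiles and departs from the planned fit only in that repeated columns were not counted. Tests used limma 3.58.1 (lmFit, eBayes, R 4.3.3) with Benjamini-Hochberg adjustment over all probes tested, on all 8 regime arrays together (3 residual and 42.9 prior degrees of freedom) or on the 4 arrays of adult leaf and CA against PE (1 residual). Probes blank on any array of the compared groups were left out, and so were probes with no residual degree of freedom. In the fit of 4 arrays this left out every probe blank on any of them. Both fits had a term for channel orientation, which is also the replicate number. Deviations of same-numbered arrays correlated between 0.20 and 0.56 over the 6 pairs of regimes (6 distinct values, since the 2 arrays of a regime mirror each other), and the term was called for 7.17% of 5345 probes and for 0 of the 4 pathway probes tested. Named genes were the pathway probes, called genes of the lists (with examples by smallest p) and the 2 most correlated named probes for each pathway probe with a value on all 8 arrays. Plates and 8 print blocks were inferred from spot order. The code was checked on simulated data. A printed cDNA can bind transcripts of related genes, so a probe may report several members of a family such as PAL. No sequence or coordinate is given. Settings tried instead are named in the closing section, and values of single profiles were also taken with block or plate medians at 0.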

Additional observations from a re-analysis of the deposited data

Results flagged for a closer look

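The effect of 8 h high differed from that of 2 h high for 2 of 4 pathway probes tested in limma, where 11.5% of all probes were called. They were pOMT1, by -0.89 (adjusted p = 0.000829, lower on both 8 h high arrays), and the AI947674 probe of cncr1, by -0.83 (adjusted p = 0.00266, lower on both). The 2 h high value of AI947674 exceeded its 4 h medium value by 0.70 (adjusted p = 0.019, higher on both). It was the 1 of 4 pathway probes called in that contrast, against 6.72% of all probes. With plate medians set to 0 the values of AI947674 were 0.12 and -0.10 and that of pOMT1 -0.73.

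Adult leaf, against 8 h low and 8 h high, had opposite signs for 2 genes on all arrays of these groups, and the differences were not tested, because the tables were normalized separately. The 2 genes were picked by this sign rule, and the share of all probes that meet it was not counted. pOMT1 was negative at 8 h low and 8 h high and positive on both adult leaf arrays (one of them at 0.002), with differences of -0.39 and -0.84. PAL1 was positive at 8 h low and 8 h high and negative on both adult leaf arrays, with differences of 0.49 and 0.84. The sign of the 8 h low and adult leaf arrays is not settled, and that of the 8 h high arrays not firmly. Turning adult leaf array 2 would give it a positive PAL1 and a negative pOMT1 value. After plate medians were brought to 0, the PAL1 values of adult leaf were -0.09 and 0.03. In seedling leaf (0.18) and the tassel profile (0.06) PAL1 was positive, and at 2 h high pOMT1 was positive, as in adult leaf. The direction of each table is an assumption, and the sign of one table against the other is not settled. No group had 4 distinct arrays, so no test was made for an array that stands apart.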

How the results depend on the processing

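Alternatives changed how many pathway probes were called. At 2 h high the count of 1 became 0 with swapped arrays turned, 0 with plate medians at 0 and 4 with array weights, and 0 to 1 leaving out 1 array. Of all 5192 probes at 2 h high, 0 were called with swapped arrays turned, 515 with plate medians and 2623 with weights. At 4 h medium the 0 became 1 with scaling and 1 with weights, where 221 and 672 of all 5280 probes were called. At 8 h high the 2 became 0 without the replicate block (the orientation term), 0 with swapped arrays turned, 1 with plate medians and 1 with weights, and 0 to 2 leaving out 1 array. In 8 h high minus 2 h high the 2 became 1 without the replicate block, 0 turned, 1 with plate medians and 1 per gene, and 0 to 2 leaving out 1 array. In 2 h high minus 4 h medium the 1 became 0 without the replicate block, 0 turned, 0 with plate medians and 0 per gene, 2 with scaling, 2 with block medians and 2 with weights, and 0 to 2 leaving out 1 array. Over all probes at 8 h high, 45 of 5221 were called without the replicate block, 180 of 5203 with plate medians and 95 with weights. In 8 h high minus 2 h high, 242 of 5054 were called without the replicate block and 392 with plate medians. Of 5152 probes in 2 h high minus 4 h medium, 167 were called without the replicate block and 210 with plate medians. Scaling gave 441, block medians 480 and weights 1573. Per gene, these contrasts had 568 of 4998 and 340 of 5093 calls. With complete probes only, both cncr1 probes are left untested, being blank on 8 h low array 2. The counts of 0 at 2 h high, 1 in 8 h high minus 2 h high and 0 in 2 h high minus 4 h medium among the 2 probes then tested follow from that. In the F test the 0 became 1 with scaling and 1 with weights, where 343 and 1125 of all 4751 probes were called. Turning swapped arrays reversed AI947674 at 2 h high (-0.29), in 8 h high minus 2 h high (0.39) and in 2 h high minus 4 h medium (-0.18), PAL1 (-0.18) and pOMT1 (0.21) at 8 h high, and pOMT1 in 8 h high minus 2 h high (0.23). Plate medians reversed AI947674 in the same 3 comparisons (-0.12, 0.12 and -0.10). The other counts of pathway probes were 0 under all alternatives. No count changed with the median of the 3 spots, or with only the compared arrays fitted without the orientation term. In the latter fit the probe called in 2 h high minus 4 h medium was pOMT1. With all 14 arrays of the first platform 0 pathway probes were called in adult leaf and 0 in CA against PE.

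Over all probes, the 714 called at 2 h high lay between 247 and 1147 leaving out 1 array and between 0 and 2623 otherwise, the 16 at 4 h medium between 5 and 16 and between 0 and 672, the 19 at 8 h low between 3 and 1008 and between 0 and 51, the 197 at 8 h high between 6 and 297 and between 0 and 398, the 580 in 8 h high minus 2 h high between 198 and 953 and between 0 and 1315, and the 346 in 2 h high minus 4 h medium between 170 and 415 and between 0 and 1573. In the same order, the 31 in 8 h high minus 8 h low lay between 0 and 660 and between 0 and 60, the 251 in 2 h high minus 8 h low between 109 and 743 and between 0 and 318, the 0 in 4 h medium minus 8 h low between 0 and 129 and between 0 and 17, and the 291 in the F test between 139 and 706 and between 0 and 1125. The 31 in adult leaf lay between 0 and 58 and the 71 in CA against PE between 0 and 507, where leaving out an array left no residual degree of freedom. The cause of these changes was not tested.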
